A study of Mus musculus with 5 samples.

Results

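The antiviral interferon-stimulated genes described here are 35 genes chosen by name for their part in the defence of a cell against viruses, sorted into effectors, the ISG15 and ADP-ribose pathway, sensors and transcription factors. By exact gene symbol, 33 of the 35 had a probe set of their own on the arrays, and in 30 of these the brightest probe set exceeded the array median on all 5 arrays, so these 30 entered the test over 11902 genes (of 18193 with a probe set of their own). Oas3, Mx1 and Dhx58 lay below the array median on all 5 arrays and were not tested, and Ifi44 and Isg15 were not analysed here, since no probe set carried either symbol alone. Whole hearts came from female mice that were bled and perfused with saline. The 3 NZB_W animals, which had lupus nephritis with moderate kidney injury by Austin scoring at 12 to 15 weeks of age, are F1 mice of the NZB and NZW strains that develop a lupus-like disease spontaneously. The 2 controls were NZW females of matched age with healthy kidneys, and no animal was treated. Nephritis came only with the hybrid genotype and health only with the parental NZW one, so disease and strain cannot be told apart in any difference below, and the titles call the arrays biological replicates.

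Type I interferons signal through a receptor on nearly all cells to transcription factors that include STAT2 and IRF9, which act at interferon-stimulated response elements near their target genes. The proteins made in response degrade viral RNA, block its translation or trap budding particles, and several of them are the RNA sensors and transcription factors that lead to further interferon. In lupus, raised expression of these genes in blood cells is well known and is often called the interferon signature.

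The response element is shown for the genes in which it was found, because it is the sequence feature that the genes are known to share. RefSeq promoters (GRCm38.p6, 250 bases before to 50 after a gene's start) were matched by symbol for 24 of the 35 genes, and 12 of these 24 held the core of the element (GAAA, any 2 bases, GAAA, on either strand) against 3.99% of 27025 genes with a promoter in the table. TTCNNNGAA, the gamma-activated sequence and a palindrome, so the same on both strands, was found in 6 of the 24 and in 9.55% of all genes. For 9 of the 12 genes a match lay before the start, and in Eif2ak2, Ddx58 and Ifih1 all matches lay after it. The windows below, 5′ to 3′ on the strand of the gene, are those of the 6 tested genes with the smallest p among those with a match before the start, with 25 bases on either side where the window did not reach the start, and capitals mark the core on either strand.
Ifit3: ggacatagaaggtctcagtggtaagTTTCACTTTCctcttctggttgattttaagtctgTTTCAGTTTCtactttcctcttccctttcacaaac
Ifit1: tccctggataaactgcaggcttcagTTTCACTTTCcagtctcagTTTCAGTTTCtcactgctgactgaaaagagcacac
Rsad2: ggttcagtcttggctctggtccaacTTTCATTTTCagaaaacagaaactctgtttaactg
Bst2: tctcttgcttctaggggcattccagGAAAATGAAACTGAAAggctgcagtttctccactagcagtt
Oas1a: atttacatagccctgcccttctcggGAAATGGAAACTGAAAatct
Stat2: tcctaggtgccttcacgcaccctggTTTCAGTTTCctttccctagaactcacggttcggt
They lie at chr19:34583348-34583441 (plus strand) for Ifit3, chr19:34640760-34640838 (plus) for Ifit1, chr12:26456538-26456597 (minus) for Rsad2, chr8:71537562-71537627 (minus) for Bst2, chr5:120907526-120907570 (minus) for Oas1a and chr10:128270251-128270310 (plus) for Stat2. Ifit3 and Ifit1 carried the same pair of matches in the same order, and the match of Stat2 is the one nearer the start in both. In Bst2 and Oas1a 2 matches overlapped. A match describes letters in the reference strain and says nothing of binding in these hearts.

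All values are log2 expression levels as deposited. Any pair of arrays correlated at 0.972 to 0.993 across tested genes. NZB_W array 3 stood apart from its group (0.977 and 0.982, against 0.993 for the other pair). The beta-actin control, whose 5′ minus 3′ difference falls as RNA shortens, was lowest on NZB_W array 3 (-1.31) and NZW array 2 (-1.19), and lay between -0.89 and -0.88 elsewhere. Heart muscle was plain on every array, with all 10 cardiomyocyte markers past the filter and a median difference of -0.04 between groups. Of all genes tested, 1 (0.0084%) had an adjusted p under 0.05, and it was none of the antiviral genes.

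Of the 30 antiviral genes tested, 29 had a higher mean in NZB_W hearts, against 45.5% of all genes, and Ifi27l2a was the exception. None had an adjusted p under 0.05 (limma over all 11902 genes, smallest adjusted p = 0.75) or under 0.1 (0.042% of all genes), and 7 were higher at an unadjusted p under 0.05, against 2.51% of all genes. The median log2 difference was 0.40, against -0.01 over all genes, and 11 of the 30 were higher by more than 0.5, against 2.28% of all genes. The groups did not overlap in 12, with NZB_W on top each time (7.6% of all genes), and in 4 of those 12 the gap was under 0.1. No antiviral gene had all NZB_W arrays beneath the NZW pair, as 9.83% of all genes did. An exact permutation test of 3 arrays against 2 cannot give a one-sided p below 0.1 for a single gene.

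**Figure D1:**
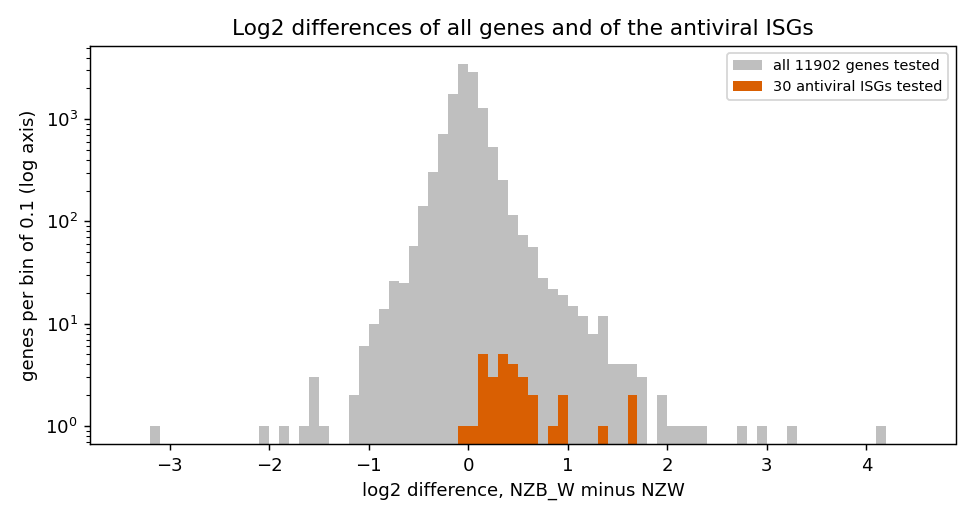
Log2 difference (NZB_W minus NZW, x axis) of the 11902 genes tested (grey) and of the 30 antiviral genes (orange), in bins of 0.1, with the number of genes on a log axis. The antiviral genes lie to the right of the peak near 0, with 1 of them below 0, and inside the range of the other genes.

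The 30 genes ordered the arrays in much the same way. NZB_W array 3 was the highest of the 5 arrays in 27 of the 30 genes (it was highest in 30.4% of all genes), and NZB_W array 1 in the other 3. NZW array 1 was alone the lowest in 21 of the 30, against 13.2% of all genes. Within NZB_W, array 3 exceeded the mean of arrays 1 and 2 in all 30 genes, by a median of 0.57 (0.02 over all genes). Within NZW, array 2 exceeded array 1 in 22 of the 30, by a median of 0.28 (0 over all genes). Relative to each gene's mean, the median of the 30 was 0.52 on NZB_W array 3, 0.07 on array 1 and -0.08 on array 2 of that group, and for NZW it was -0.35 (array 1) and -0.10 (array 2). NZB_W array 2 and NZW array 2 were thus close on this measure, and the shift inside NZB_W (0.57) exceeded the median difference between the groups (0.40).

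Leaving out arrays moved the size more than the direction. Without NZB_W array 3 the median difference was 0.24, with 26 of the 30 higher and 12 not overlapping (11.9% of all genes do not overlap upward in that setting), and without NZW array 1 it was 0.25, with 27 higher and 14 not overlapping (21.4%). Without NZB_W array 2 all 30 were higher, 23 without overlap (10.6% of all genes), and without NZW array 2 all 30 were higher, 24 without overlap (17.5%). With NZB_W array 3 and NZW array 2 both left out, the median was 0.32, 27 were higher and 24 did not overlap (23.6% of all genes). The count at an unadjusted p under 0.05, 7 with all arrays, was 2 without NZB_W array 1, 2 without NZW array 1 and 4 without NZW array 2.

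**Figure D2:**
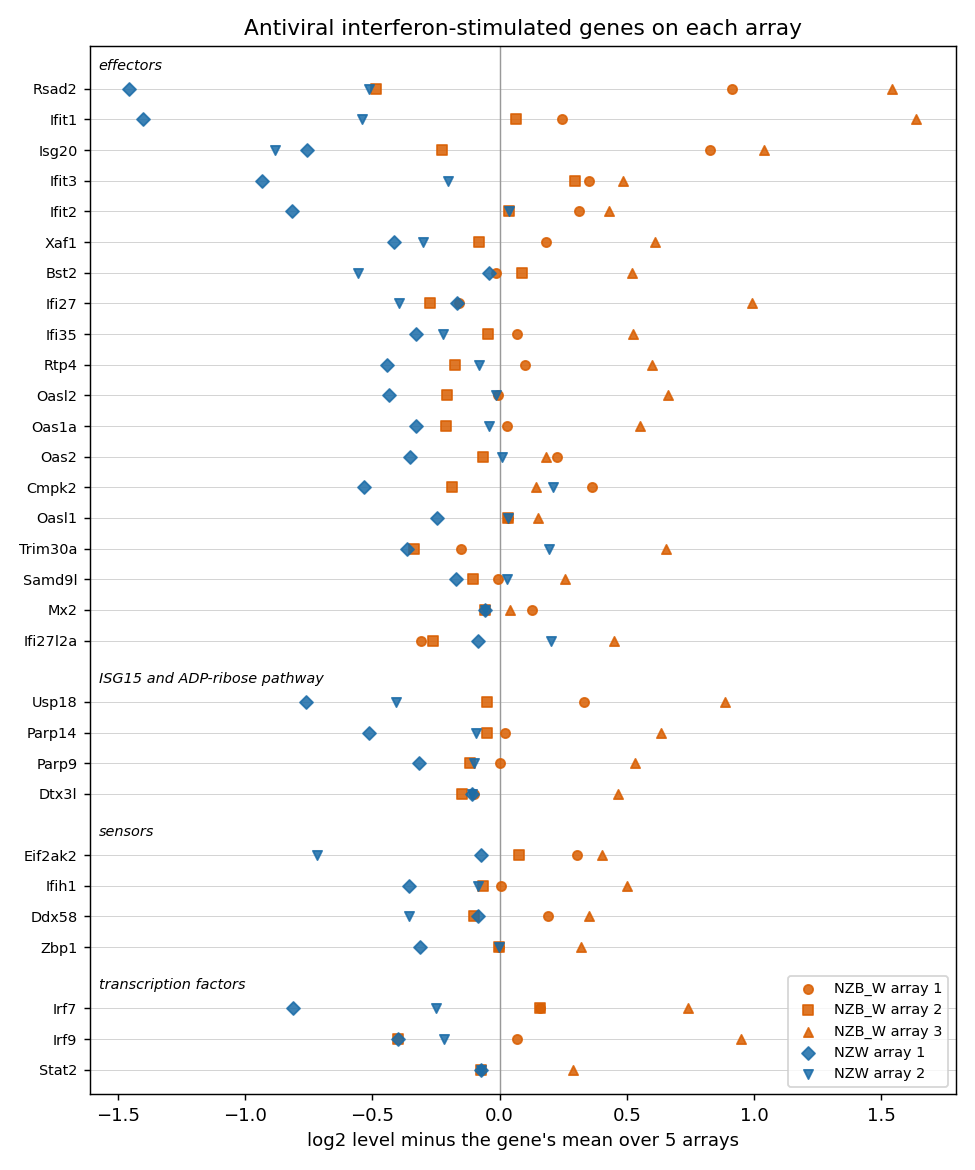
Log2 level of each of the 30 genes on each array, minus the mean of that gene over 5 arrays (x axis), by role; orange marks are the 3 NZB_W arrays and blue marks the 2 NZW arrays. NZB_W array 3 (orange triangle) is the rightmost mark in 27 genes, and NZW array 1 (blue diamond) alone is the leftmost in 21.

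Among effectors, 18 of 19 tested genes had a higher mean in NZB_W hearts (45.5% of all genes). Of the 19, 7 were higher without overlap (7.6% of all genes), and the median difference was 0.43. The largest differences were in Rsad2, Ifit1 and Isg20. Rsad2 encodes viperin, a radical SAM enzyme that makes a chain-terminating nucleotide. Its brightest probe set (1436058_at) read 10.003, 8.60 and 10.63 in the NZB_W hearts, in the order of their replicate numbers as throughout, and 7.63 and 8.57 in the NZW hearts. NZB_W array 2 lay only 0.03 above NZW array 2, so the groups were barely separate. The log2 difference was 1.64 (SE 0.68), or 3.12-fold, with a 95% interval from -0.15 to 3.43, and limma gave an adjusted p of 0.859. Its other probe sets differed by 1.66 (SE 0.72) and 1.53 (SE 0.56). Cmpk2, a mitochondrial nucleotide kinase encoded next to Rsad2, differed by 0.27 (SE 0.28), and its groups overlapped, with NZB_W at 7.05, 6.50 and 6.83 and NZW at 6.15 and 6.90. Without NZW array 1 the Cmpk2 difference was -0.10.

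The Ifit proteins bind foreign RNA and hold it back from translation, and their genes form a cluster. Ifit1 (1450783_at) read 7.21, 7.03 and 8.61 in NZB_W and 5.56 and 6.42 in NZW. Every NZB_W array lay above both NZW arrays, by at least 0.61, with the highest value on NZB_W array 3. The difference was 1.62 (SE 0.58), or 3.08-fold, with an interval from 0.11 to 3.13. Ifit3 (1449025_at), which steadies Ifit1 on RNA in human cells, read 8.40, 8.34 and 8.53 in NZB_W and 7.11 and 7.84 in NZW. Here the spread lay between the NZW arrays (SD 0.52, n = 2, against 0.096, n = 3), and NZB_W array 3 did not stand out. The difference was 0.94 (SE 0.23), or 1.92-fold, with the smallest p of the 30 genes (limma adjusted p = 0.75, higher on 3 of 3 NZB_W arrays), and it was 0.89 without NZB_W array 3 and 0.58 without NZW array 1. Ifit2 (1418293_at) had the same value, 8.12, on NZB_W array 2 and NZW array 2, with NZB_W arrays 1 and 3 at 8.39 and 8.52 and NZW array 1 at 7.27. Its difference of 0.65 (SE 0.29) was 0.22 without NZW array 1.

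Isg20, an exonuclease that degrades single-stranded RNA, read 7.70, 6.65 and 7.91 in NZB_W and 6.11 and 5.99 in NZW (1419569_a_at). The groups did not overlap, and NZB_W array 2 was nearer to the NZW arrays than to the other NZB_W arrays. The difference was 1.37 (SE 0.41), or 2.58-fold, and ran from 1.12 to 1.75 with any 1 array left out.

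The oligoadenylate synthetases make the second messenger that activates RNase L, and none of those tested separated the groups. Oas1a differed by 0.31 (SE 0.25), Oas2 by 0.29 (SE 0.15), Oasl2 by 0.37 (SE 0.30) and Oasl1 by 0.18 (SE 0.11). Oasl1, which restrains translation of Irf7, had an identical value of 5.30 on NZB_W arrays 1 and 2 and NZW array 2. Oas3 read 3.93 to 4.31 in NZB_W and 3.98 to 4.01 in NZW, below the array medians of 4.62 to 4.68. The Mx genes encode dynamin-like GTPases, and Mx1 is defective in most laboratory strains. Mx1 read 3.23 to 3.35 in NZB_W and 2.98 to 3.25 in NZW, at about the lower quartile of the arrays (3.27 to 3.33), and Mx2 differed by 0.095 (SE 0.077) with an interval from -0.11 to 0.30.

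Xaf1, which promotes apoptosis by opposing XIAP, read 8.23, 7.97 and 8.66 in NZB_W and 7.63 and 7.75 in NZW. The groups did not overlap, and the difference of 0.60 (SE 0.22), or 1.51-fold, was 0.41 without NZB_W array 3. Ifi35, a leucine zipper protein that pairs with Nmi, read 9.13, 9.02 and 9.59 against 8.74 and 8.84, a difference of 0.46 (SE 0.19) without overlap. Its probe set 1424617_at gave 8.07, 7.95 and 8.28 against 7.46 and 7.46, a difference of 0.64 (SE 0.11, limma adjusted p = 0.57 over 20210 probe sets), the smallest adjusted p among the probe sets of these genes. Bst2, the tetherin that holds budding virions at the cell surface, read 7.31, 7.41 and 7.84 against 7.28 and 6.77. Its groups were separated by 0.03, and the difference of 0.50 (SE 0.23) was 0.24 with NZW array 2 left out and 0.08 with NZB_W array 3 left out as well.

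The remaining effectors overlapped between the groups. Rtp4, a chaperone of membrane receptors, differed by 0.43 (SE 0.26) and Samd9l, an inhibitor of translation that restricts poxviruses, by 0.12 (SE 0.14). Ifi27, a small membrane protein gene, read 9.22 and 9.11 on NZB_W arrays 1 and 2, close to the 9.21 and 8.99 of NZW, and 10.38 on NZB_W array 3. That array thus carried its difference of 0.47 (SE 0.43), which was 0.07 without it. The related Ifi27l2a, whose gene overlaps Ifi27 in RefSeq so that their signals are uncertain, differed by -0.10 (SE 0.27), with values of 8.90, 8.94 and 9.66 against 9.12 and 9.41. Trim30a, which restrains NF-kappaB signalling, differed by 0.14 (SE 0.36) on its brightest probe set and by -0.16 without NZB_W array 3, and by 0.50 (SE 0.25) on another on which the groups did not overlap.

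In the ISG15 and ADP-ribose pathway all 4 tested genes had a higher mean in NZB_W hearts (45.5% of all genes), 2 without overlap (7.6%). Usp18, the protease that removes ISG15 from proteins and damps the interferon receptor, read 7.02, 6.64 and 7.58 against 5.93 and 6.28 (1418191_at). The gap between the groups was 0.36. Its difference of 0.98 (SE 0.30), or 1.97-fold, lay between 0.73 and 1.19 with any 1 array left out. Parp14, an ADP-ribosyltransferase, read 7.26, 7.19 and 7.87 against 6.72 and 7.14, a difference of 0.51 (SE 0.26) with a gap of 0.04. Its neighbours Parp9 and Dtx3l, whose proteins form an ADP-ribosyltransferase and ubiquitin ligase complex, differed by 0.35 (SE 0.22) and 0.18 (SE 0.21), with overlap. Dtx3l read 7.41 and 7.36 on NZB_W arrays 1 and 2 and 7.40 on each NZW array, and 7.98 on NZB_W array 3, so without that array the difference was -0.015.

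Among sensors of foreign nucleic acid all 4 tested genes had a higher mean in NZB_W hearts (45.5% of all genes), with a median difference of 0.37. Eif2ak2, the kinase PKR that halts translation on binding double-stranded RNA, read 6.46, 6.23 and 6.55 in NZB_W and 6.08 and 5.43 in NZW (1422006_at). The groups did not overlap, and here NZW array 2 was the lowest array. The difference was 0.66 (SE 0.22), or 1.58-fold, and 0.34 without NZW array 2. The other probe sets of Eif2ak2 differed by 0.54 (SE 0.19) and 1.33 (SE 0.51), each without overlap. Ifih1, the sensor MDA5 of long double-stranded RNA, read 7.28, 7.21 and 7.77 against 6.92 and 7.19, a difference of 0.37 (SE 0.21) with a gap of 0.02. Ddx58, the sensor RIG-I, also differed by 0.37 (SE 0.17), with values of 7.00, 6.71 and 7.16 against 6.72 and 6.45, which overlapped. Zbp1, a sensor of Z-form nucleic acid that can start necroptosis, had the same value, 5.29, on NZB_W arrays 1 and 2 and NZW array 2, and differed by 0.26 (SE 0.15). Dhx58, the regulator LGP2, read 4.11 to 4.41 in NZB_W and 4.11 on both NZW arrays, below the array medians.

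Of the transcription factors, Irf7 separated the groups and Irf9 and Stat2 did not. Irf7, which drives the transcription of interferon alpha genes, read 6.30, 6.30 and 6.88 in NZB_W and 5.33 and 5.89 in NZW (1417244_a_at). The lowest NZB_W value exceeded the highest NZW value by 0.41. The difference was 0.88 (SE 0.27), or 1.85-fold, and ran from 0.60 to 1.17 with any 1 array left out. Irf9, a DNA-binding partner of STAT2, read 6.93, 6.46 and 7.81 against 6.46 and 6.64. NZB_W array 3 stood above the rest, and the difference of 0.52 (SE 0.42) was 0.14 without it. Stat2 had the same value, 5.23, on 4 arrays and 5.59 on NZB_W array 3 (1421911_at), while its dimmer probe set read 4.84, 4.83 and 5.30 against 4.59 and 4.74, a difference of 0.32 (SE 0.18) without overlap.

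**Figure D3:**
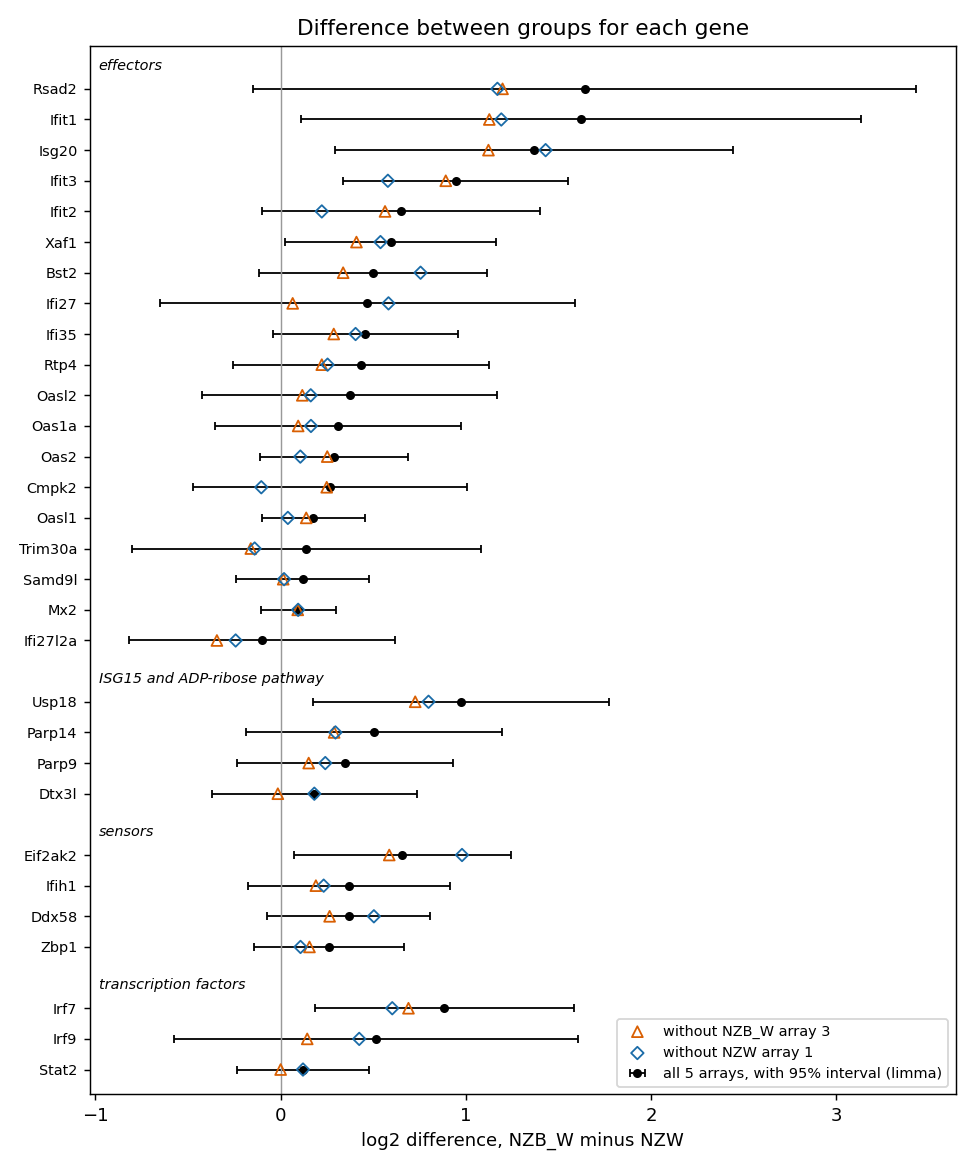
Log2 difference (NZB_W minus NZW, x axis) of each of the 30 genes with its 95% interval from limma (black), and the difference without NZB_W array 3 (open triangle) or without NZW array 1 (open diamond). The intervals of 7 genes lie above 0 before adjustment. All points of Rsad2, Ifit1, Isg20, Ifit3, Usp18, Irf7 and Eif2ak2 lie above 0.5.

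Probe sets of the same gene mostly pointed the same way. Of 52 probe sets for these genes, 43 passed the filter, 42 of them had a higher mean in NZB_W, 20 without overlap (6.72% of all 20210 probe sets tested), and 0 had an adjusted p under 0.05 (0.0247% of all). Of the 10 genes with more than 1 probe set past the filter, Eif2ak2, Ifi35, Rsad2, Ddx58 and Ifi27 gave differences over 0.3 on each of them. Zbp1 gave 0.26 and 0.13, and Cmpk2 0.27 and 0.20.

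**Figure D4:**
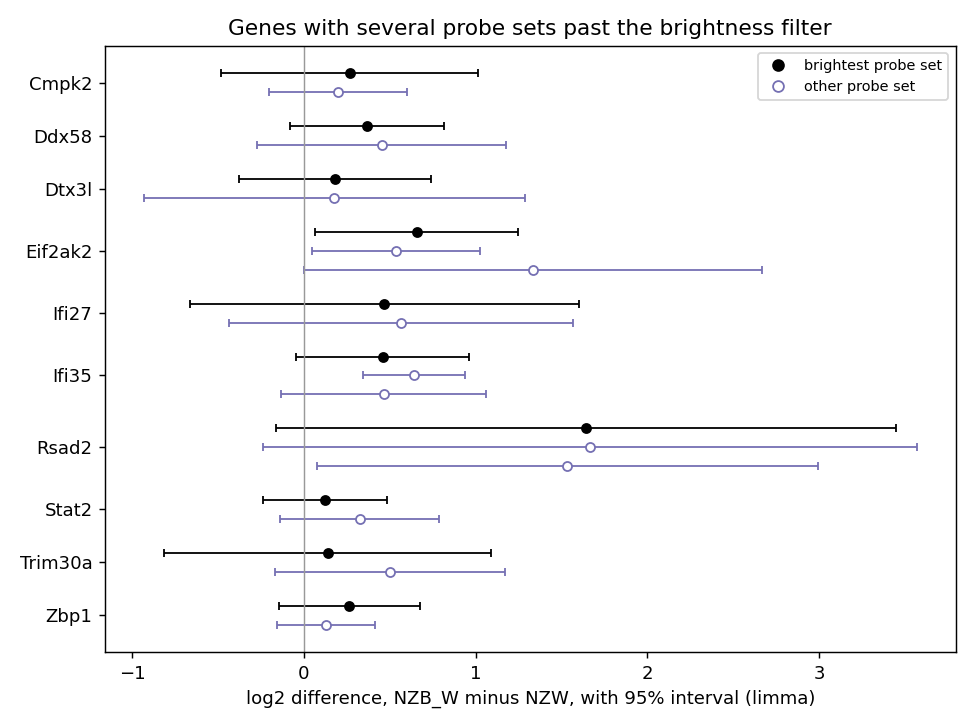
Log2 difference (NZB_W minus NZW, x axis) with 95% interval from limma for the 10 genes with more than 1 probe set past the brightness filter; black points are the brightest probe set of a gene and open points its others. All points lie above 0, and the widest intervals are those of Rsad2.

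Genes upstream of these were read in 3 lists. Of 15 interferon genes listed, 10 were on the arrays by their own symbol and 2 passed the filter, and neither Ifnz (0.15, SE 0.097) nor Ifna1 (0.13, SE 0.15) passed the test. Ifnb1 read 3.55 to 3.74 in NZB_W and 3.48 to 3.65 in NZW, and Ifng 2.59 to 2.63 in NZB_W and 2.61 to 2.63 in NZW, all below the array medians. Of 17 tested genes of interferon receptors and signalling, 11 had a higher mean (45.5% of all genes), with a median difference of 0.03. Only 2 of the 17 did not overlap upward, near the 7.6% of all genes. The receptor chain Ifnar2 differed by -0.12 (SE 0.099), the kinase Jak1 by -0.22 (SE 0.14), and the phosphatase Ptpn6 by 0.35 (SE 0.14). Of 22 genes that sense nucleic acid or lead to interferon production, 14 had a higher mean (median 0.07). In this list 4 did not overlap upward and 2 downward, against 7.6% and 9.83% of all genes. The DNA-binding protein Ifi204 differed by 0.80 (SE 0.18), the endosomal RNA receptor Tlr7 by 0.27 (SE 0.12), and the RNase H2 subunits Rnaseh2a and Rnaseh2c by -0.37 (SE 0.11) and -0.29 (SE 0.11). No gene of these lists passed the test (limma, adjusted p from 0.741 for Ifi204 upward). In the sensing list 1 gene was higher and 2 lower at an unadjusted p under 0.05, against 299 and 361 of all 11902 genes.

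A longer list of other antiviral interferon-stimulated genes was also measured. Of its 47 tested genes, 40 had a higher mean in NZB_W hearts (45.5% of all genes) and 15 did not overlap upward (7.6%), with a median difference of 0.19. None passed the test, and 10 were higher at an unadjusted p under 0.05 (2.51% of all genes). The galectin Lgals9 read 8.06 to 8.12 in NZB_W and 7.69 to 7.81 in NZW, a difference of 0.34 (SE 0.067, limma adjusted p = 0.666, higher on 3 of 3 NZB_W arrays). The cytidine deaminase Apobec3 differed by 0.32 (SE 0.085), the membrane protein Ifitm1, which blocks viral entry, by 0.81 (SE 0.25), and the GTPase Gbp7 by 1.11 (SE 0.34), and each lacked overlap. Of 9 tested genes that respond mainly to interferon gamma, all had a higher mean, 7 without overlap (7.6% of all genes), with a median of 0.95. Relative to each gene's mean, their median was 1.19 on NZB_W array 3, against 0.52 for the antiviral genes, and between -0.60 and 0.03 on the other arrays.

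In whole-heart RNA, more cells of a type and more RNA per cell cannot be told apart. Markers of some other cell types were, like the antiviral genes, higher on average in NZB_W hearts, though none passed the test. Of 21 macrophage and monocyte markers listed, 19 were tested, and 18 had a higher mean in NZB_W (45.5% of all genes). Of the 19, 12 did not overlap upward (7.6% of all genes), 3 were higher at an unadjusted p under 0.05 (2.51%), and 0 passed the test. The log2 of their summed level was 12.59 to 13.35 in NZB_W and 12.06 to 12.51 in NZW. Relative to each gene's mean, their median was 0.79 on NZB_W array 3, -0.01 and -0.02 on the other NZB_W arrays, and -0.11 and -0.42 for NZW. Like the antiviral genes they were highest on NZB_W array 3, whereas the lowest array was NZW array 2 for these markers and NZW array 1 for the antiviral genes. Itgam, the integrin CD11b, read 4.76 to 5.39 against 3.69 to 3.77, and C1qb, a chain of complement C1q, 9.20 to 10.12 against 8.40 to 8.76. Both NZW values of Itgam lie below the array medians of 4.62 to 4.68. It passed the filter through NZB_W arrays alone, which favours a higher NZB_W value. Itgam is among the 12 and the 3 counted above. Plasmacytoid dendritic cells make much of the interferon alpha of the body. Siglech, their defining marker, read 4.76 to 4.89 in NZB_W and 4.58 to 4.76 in NZW, near the array medians. The 6 tested markers, of which Bst2 is also an antiviral gene, had a median difference of 0.15. They include Cox6a2, as bright as cardiomyocyte markers at 13.37 to 13.50, and Tcf4, at 10.07 to 10.54, so this median does not stand for that cell type alone. The largest differences among the tested cell markers were those of 2 red blood cell markers, of 8 listed. Hba-a1 and Epb42, of the same list, were dim and untested. They differed by 0.16 and 0.03, and Epb42 overlapped between the groups. Alas2, the erythroid enzyme of heme synthesis, read 9.70, 7.90 and 10.11 against 7.14 and 6.95, and Slc4a1, the anion exchanger of the red cell membrane, 7.28, 4.87 and 8.33 against 4.30 and 3.93. Neither Alas2 nor Slc4a1 overlapped between the groups, and NZB_W array 3 was the highest in both, followed by array 1. Both NZW values of Slc4a1 lie below the array medians. It too passed the filter through NZB_W arrays alone, which favours a higher NZB_W value and a lack of overlap. Of 7 tested B and plasma cell markers, 4 had a higher mean in NZB_W and 3 a lower one, and their median difference was 0.003. The largest differences among them were those of the joining chain gene Jchain, 1.58 (SE 0.45), and the immunoglobulin chain gene Igha, 1.13 (SE 0.16), both without overlap. Endothelial markers had a median difference of 0.07 (8 of 11 with a higher mean), fibroblast markers one of -0.03 (4 of 9) and smooth muscle and pericyte markers one of 0.17 (7 of 9). NZB_W array 3 was the highest for these too, with array medians of 0.21, 0.20 and 0.50 in that order. The 3 tested T and NK cell markers, of 15 listed, had a median difference of 0.04. Most of the others were dim and untested, and some of these were higher on every NZB_W array while others overlapped. The median difference was -0.02 for 4 neutrophil markers and -0.05 for 4 markers of conventional dendritic cells. The part of these markers, and of the beta-actin difference, in the antiviral values was not tested.

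**Figure D5:**
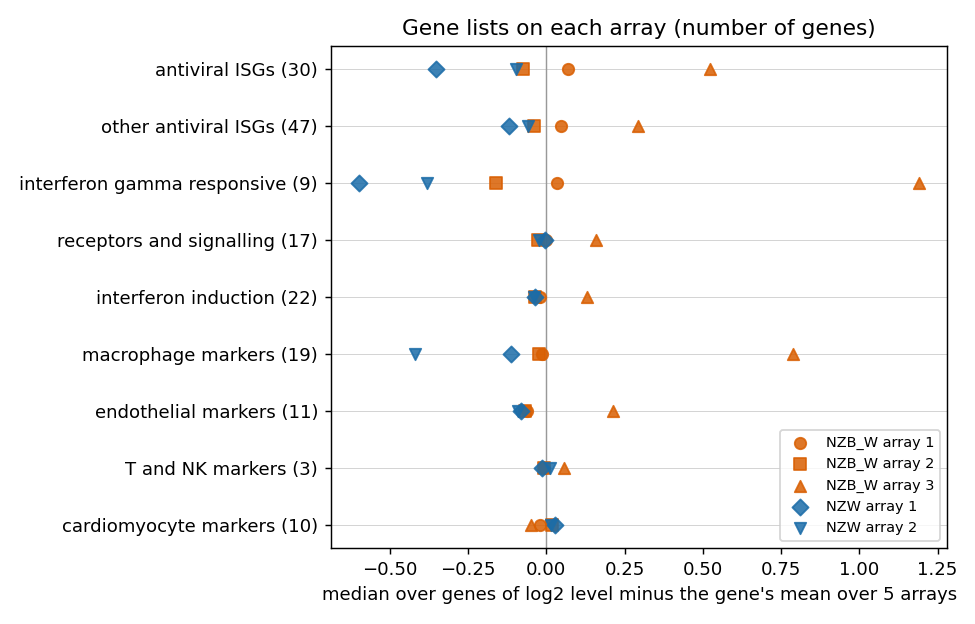
Median over the genes of a list of the log2 level minus each gene's mean over 5 arrays (x axis), for each array, with the number of genes tested in brackets; orange marks are NZB_W arrays and blue marks NZW arrays. NZB_W array 3 is the rightmost mark in every list shown but that of cardiomyocyte markers, and the order of the other arrays differs between the antiviral genes and the macrophage markers.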

How the data were processed

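Whole-heart RNA of 3 NZB_W and 2 NZW females was measured on Affymetrix mouse genome arrays, and groups come from the sample titles. The authors deposited 1 log2 expression value per probe set and array. The scale is read from the values, and RMA, GCRMA and Partek appear in the submitters' processing notes with neither version nor role. Which summary method produced these numbers is not known here, and RMA and GCRMA differ most for dim probe sets. In 46.5% of tested genes and 7 of the 30 tested antiviral genes, 2 or more arrays hold an identical value. Scanner files were not used here, so there are no detection calls.

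Of 45101 probe sets, 64 controls were left out, and 34958 carry 1 symbol in the platform annotation, 932 several and 9211 none. The brightest probe set over 5 arrays stood for a gene, and genes over the array median on at least 2 arrays were tested with limma (version 3.58.1, under R version 4.3.3) by a two-sided moderated test with group as its only term and Benjamini-Hochberg adjustment over all genes, at a threshold of 0.05. SE is limma's moderated standard error, and a fold is the antilog of the log2 difference. The script was tested on simulated data. The genes and lists were chosen with earlier results of these data known. All 35 listed genes are named, with up to 4 genes of smallest p from each other list. Ifnb1, Ifng, Cxcl10, Nlrc5, Ddx60, Gm4951, Gbp2b, Slfn3, Ifi44l, Hba-a1 and Epb42 are named besides. They are dim genes without a test that were chosen after their values were seen. The number of arrays limits the precision. Promoters come from RefSeq (GRCm38.p6). Alternatives covered normalization, filter, probe set, variance model, weights, a replicate block and left-out arrays. Figures used matplotlib 3.10.9.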

Additional observations from a re-analysis of the deposited data

How the results depend on the processing

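No antiviral gene had an adjusted p under 0.1 in any setting tried (limma; the smallest was 0.435, with array weights), and 7 were higher at an unadjusted p under 0.05 with all arrays, against 2 to 9 with any 1 array left out and 4 with array weights. Their median difference was above 0 in each setting, at 0.40 with all arrays, 0.24 to 0.55 with any 1 array left out and 0.19 with array weights, which gave NZB_W array 3 the lowest weight. Of 11902 genes, 1 was called, against 5 with the mean of a gene's probe sets, 2 when _s_at, _x_at and _a_at probe sets were dropped (2 also when the filter was lifted as well, an alternative chosen after seeing the data), 8 with array weights, 5 at an adjusted p under 0.1, 0 to 1 with any 1 array left out, and 0 without NZB_W array 3 and NZW array 2. Antiviral genes without overlap numbered 12 to 24 with any 1 array left out, and 24 without those 2 arrays (23.6% of all genes in that setting, against 7.6% with all arrays). With any 1 array left out, the difference ran from -0.10 to 0.64 for Cmpk2, -0.16 to 0.42 for Trim30a, -0.34 to 0.046 for Ifi27l2a, -0.015 to 0.29 for Dtx3l and 0 to 0.18 for Stat2. Without NZB_W array 3 and NZW array 2, Ifi27 differed by -0.049, Dtx3l by -0.015 and Stat2 by 0, and with array weights Trim30a by -0.14; the cause was not tested. The replicate number is shared by NZB_W and NZW arrays 1 and 2, whose deviations from their group means correlated at -0.258 and 0.102. The deviations of 2 NZW arrays mirror each other, so these values do not settle whether the arrays are paired, which was not tested. With a replicate block NZB_W array 3 is alone in its number; 0 genes were called, the median was 0.24, and Trim30a differed by -0.16, Dtx3l by -0.015 and Stat2 by 0. No detection calls were used, so signal over background is unknown for the dim genes.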

Other observations

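Of 58 other antiviral genes on the arrays 47 were tested, and of 14 interferon gamma genes 9, since the rest were dim. Most of these dim genes did not separate the groups. Cxcl10, Nlrc5, Ddx60, Gm4951 and Gbp2b did, with NZB_W on top (6.64% of all genes when no filter is applied). Those named here were picked after their values were seen. Cxcl10, a chemokine induced by interferon, read 4.31, 3.88 and 4.79 in NZB_W and 3.67 and 3.42 in NZW. Nlrc5, the activator of MHC class I genes, read 4.46, 4.46 and 6.06 against 3.91 and 4.20, with NZB_W array 3 far above the rest. The helicase gene Ddx60 read 4.42, 4.13 and 4.93 against 3.91 and 3.97. None of these genes has a test here. Their values lie below the array medians, except those of Cxcl10, Nlrc5 and Ddx60 on NZB_W array 3.

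Slfn3 and Ifi44l, further listed antiviral genes, read 2.47 to 2.70 and 2.72 to 3.01 over the 5 arrays, with overlap, and most dim genes of the list did not separate either.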
